A study of Triticum aestivum with 4 samples.

Results

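Histones are the proteins around which nuclear DNA is wound. The core histones H2A, H2B, H3 and H4 form the nucleosome, and the linker histone H1 binds the DNA between nucleosomes. Most core histone RNA is made during DNA replication to pack new DNA, whereas variants such as H2A.Z and H3.3 are also made and placed outside replication. In plants histone mRNAs carry poly(A) tails, so a library that selects mRNA by its tail retains them. In roots their levels are usually highest where cells divide.

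The transcripts described here are the assembled wheat transcripts whose best protein hit was named histone H1, histone H2A, histone H2B, histone H3 or histone H4 and came from Aegilops (goatgrass), Triticum, Hordeum or Brachypodium. Histone-modifying enzymes and chaperones were left out by name, and a value for each library had to be recoverable from the deposited table. The rule took 29 of 91482 such transcripts, out of 147297 rows in all, and the 29 lay in 21 assembled genes. The best hit was in Aegilops tauschii for 25 and in Brachypodium distachyon for 4. There were 9 transcripts of H1, 13 of H2A, 1 of H2B and 6 of H3, and 0 of H4. A further 6 histone rows with hits in these genera had 1 FPKM per group only and are given separately.

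Roots of bread wheat (Triticum aestivum, genotype UAS-375) were collected from plants aged 45 days. Seeds of the hypergravity group had been held at 10 g for 12 h before sowing, seeds of the control group were untreated, and all plants grew in pipes in a greenhouse. Each group had 2 stranded mRNA libraries, called a and b here because nothing ties a recovered library to a replicate number. Separate plants are not stated as the source of these libraries, so p-values measure only the spread between libraries, which may be technical. Recovered counts summed to 46604327 and 47850533 in the hypergravity libraries and to 49424285 and 53346750 in the control libraries. A level is a count divided by the library's size factor (a normalized count), and a change is a log2 fold change ± SE of hypergravity over control from limma. A transcript was called at a Benjamini-Hochberg adjusted p under 0.05 over all 91482 transcripts.

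The labelled tissue could be checked only in part. Casparian strip membrane proteins, which mark the root endodermis, were found as 3 goatgrass rows with FPKM of at most 1.85 in hypergravity and 1.09 in control. The SHORT-ROOT 1 transcript with counts, of a root patterning regulator, stood at 103 and 74.1 normalized counts in hypergravity and at 103 and 127 in control. The 5 transcripts of SCARECROW, which acts with SHORT-ROOT, summed to 323 and 226 in hypergravity and to 283 and 487 in control. Hypergravity b was the lowest and control b the highest library for both regulators, as in most histone transcripts. Over the 92 tested transcripts of the root marker patterns, nearly all named SCARECROW or scarecrow-like, 21 were called lower and 10 higher, with a median of -0.31. Over these 92 transcripts normalized counts summed to 59516 and 61808 in hypergravity and to 58480 and 64498 in control. There control a was the lowest library, and hypergravity b lay above hypergravity a. The part of the root markers in the histone result was not tested. Of green tissue, 3 chlorophyll a-b binding transcripts summed to 142 and 106 in hypergravity and to 107 and 67.6 in control, and no small Rubisco subunit was among the tested transcripts of these genera.

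The Pfam domain column of the deposited table gave a core histone domain (PF00125) to 8 of the 29 transcripts, the linker histone domain (PF00538) to 8 and the H2A C-terminus (PF16211) to 1. It gave no domain to 11. The H3.v1-like transcripts go against their name, because 1 of these 3 carries a domain of unknown function (PF04398) and the other two carry none. They are called H3.v1-like here only as the name of their best hit, and counts are given with and without them.

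Most of these histone transcripts were lower in roots from hypergravity seeds, and none was called higher. Of the 29, 18 were called lower and 11 were not called, where 11.9% of all transcripts tested were called lower and 13.5% higher. Their median change was -0.57, against -0.01 over all transcripts. At an unadjusted p under 0.05, 20 were lower and 0 higher, and limma with voom weights on the counts also called 18 lower and 0 higher. Without the mean-variance trend in the limma fit, 8 were called lower and 0 higher. Without the H3.v1-like transcripts 16 of 26 were lower. Summed per assembled gene, 14 of 21 genes were lower and 0 higher, where 12.3% of all genes were called lower and 14.3% higher. In bulk roots, fewer cells of a type and less histone RNA per cell cannot be told apart.

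The 4 libraries have to be read one by one here, because the histone transcripts also differed together between libraries of the same group. Over the 29 transcripts, normalized counts summed to 24182 and 19132 in hypergravity a and b and to 30405 and 38601 in control a and b. The hypergravity sums lay below both control sums. Hypergravity b was below hypergravity a for 25 of 29 transcripts, with a median log2 difference of -0.52. Control b was above control a for 25 of 29, with a median of 0.38. Over all transcripts the same medians were 0.0006 and 0.009. The transcripts are therefore not independent of each other, and 18 calls are not 18 separate observations. Without hypergravity b, 11 transcripts were called lower and the median change was -0.48.

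**Figure D1:**
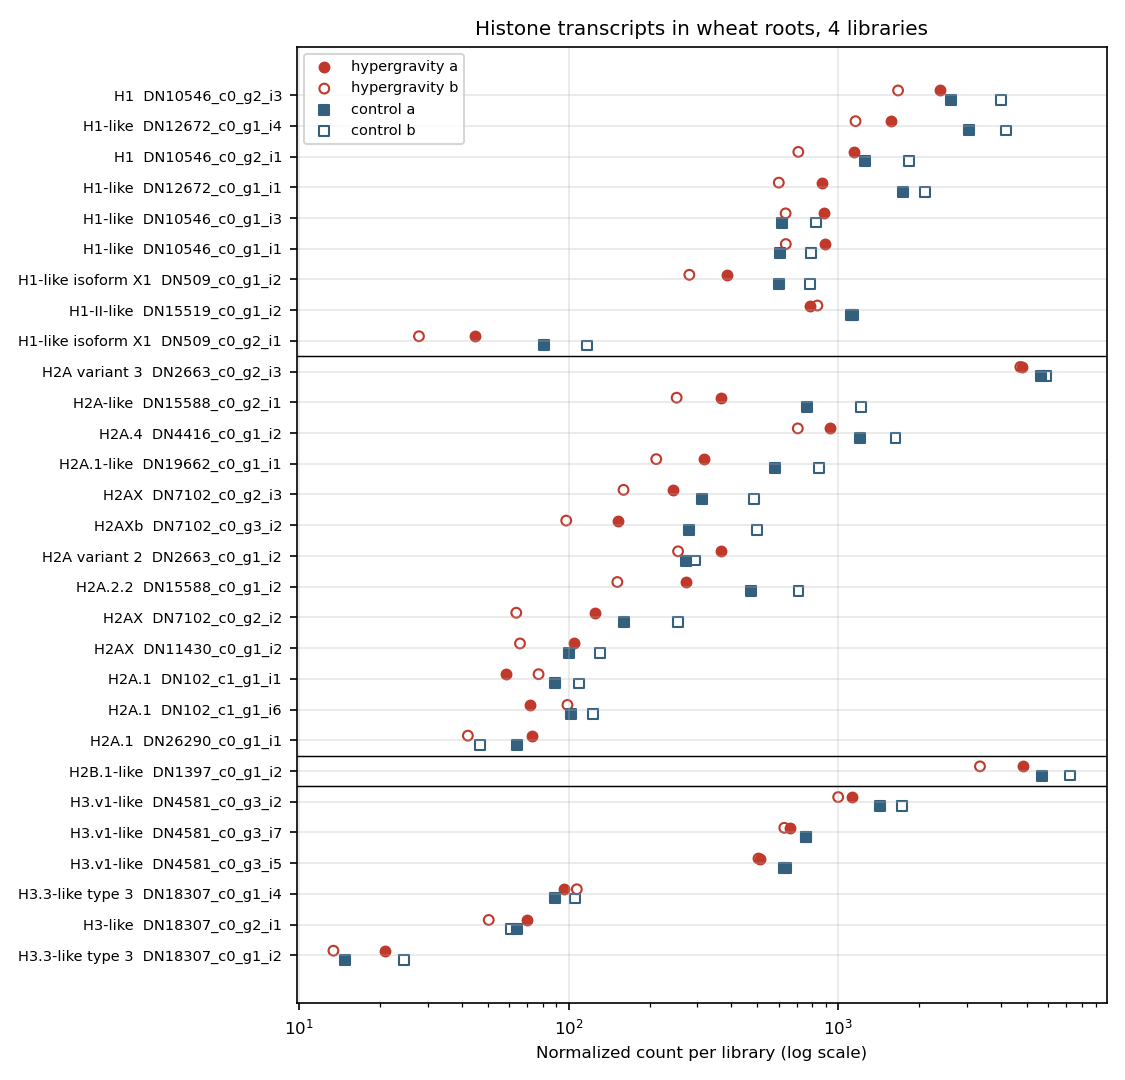
Normalized count of each of the 29 histone transcripts in the 4 libraries on a log axis, with hypergravity libraries as red circles above control libraries as blue squares and lines between the classes H1, H2A, H2B and H3. In 21 transcripts both hypergravity libraries lie below both control libraries; hypergravity b is the lowest point in 23 transcripts and control b the highest in 21.

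Both hypergravity libraries lay below both control libraries in 21 of 29 transcripts and above in 0, where 32% of all transcripts were separated downward and 31.9% upward. The other 8 histone transcripts overlapped. Among transcripts with best hits in the same 4 genera the shares were 33.8% downward and 31.5% upward, and 13% were called lower and 13.2% higher. Of the 18 called transcripts 9 were at least 2-fold lower.

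Of the 9 linker histone transcripts, 7 fell and 2 did not pass the test, with a median of -0.75. Summed H1 levels were 8961 and 6556 in hypergravity and 11708 and 15776 in control. The H1-like gene TRINITY_DN12672_c0_g1 held 2 transcripts that fell by nearly the same amount. Its isoform i4 had 1571 and 1158 normalized counts in hypergravity, against 3043 and 4195 in control. That is a change of -1.40 ± 0.17 (adjusted p = 0.000229, limma). Isoform i1 had 869 and 601 in hypergravity and 1741 and 2099 in control, a change of -1.40 ± 0.16. The groups did not overlap in either isoform, and the ratio of i4 to i1 averaged 1.87 ± 0.08 in hypergravity and 1.87 ± 0.18 in control (SD, n = 2 libraries each).

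A further H1-like best hit was shared by transcripts of 2 assembled genes. TRINITY_DN509_c0_g1_i2 stood at 388 and 280 in hypergravity and at 603 and 783 in control, a change of -1.06 ± 0.17 (adjusted p = 0.00154, limma). TRINITY_DN509_c0_g2_i1, a scarce transcript, stood at 44.8 and 27.8 in hypergravity and at 80.9 and 116 in control, a change of -1.43 ± 0.29 (adjusted p = 0.00513, limma). In both, each hypergravity library was below each control library.

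The most abundant H1 per length was TRINITY_DN10546_c0_g2_i3, with 4013 normalized counts per kilobase in hypergravity and 6576 in control. It had 2387 and 1666 normalized counts in hypergravity and 2627 and 4015 in control, and changed by -0.70 ± 0.20 (adjusted p = 0.0269, limma). The gap between hypergravity a and control a was small beside the gap between the control libraries. The call was lost without hypergravity b (adjusted p = 0.156) and without control b (adjusted p = 0.054). Its isoform i1 had 1143 and 710 in hypergravity and 1252 and 1830 in control and changed by -0.75 ± 0.22, a call also lost without hypergravity b (adjusted p = 0.171, limma).

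The neighbouring assembled gene TRINITY_DN10546_c0_g1, from the same assembly cluster and also named H1-like, was not called. Its isoform i3 had 885 and 637 normalized counts in hypergravity and 620 and 826 in control, a change of 0.07 ± 0.17 with a 95% interval of -0.31 to 0.45. Isoform i1 had 891 and 638 in hypergravity and 606 and 794 in control, and changed by 0.12 ± 0.17 (interval -0.26 to 0.50). In both isoforms the groups overlapped.

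Setting H1 transcripts against each other within a library removes the part of the spread that they share. The ratio of TRINITY_DN10546_c0_g2_i3 to TRINITY_DN10546_c0_g1_i3 was 2.70 and 2.61 in hypergravity and 4.24 and 4.86 in control. The ratio of TRINITY_DN12672_c0_g1_i4 to the same transcript was 1.78 and 1.82 in hypergravity and 4.91 and 5.08 in control. The hypergravity ratios lay below the control ratios and differed little within a group. An exact permutation test of 2 libraries against 2 cannot give a two-sided p below 0.333, so these ratios are descriptions, chosen after the levels were seen.

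H1-II-like (TRINITY_DN15519_c0_g1_i2) fell with little spread between libraries of a group. It had 782 and 836 normalized counts in hypergravity and 1134 and 1118 in control, a change of -0.48 ± 0.09 (adjusted p = 0.00468, limma). The call was lost without the mean-variance trend (adjusted p = 0.0569, limma). It was the longest of the H1 transcripts at 1837 bases.

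**Figure D2:**
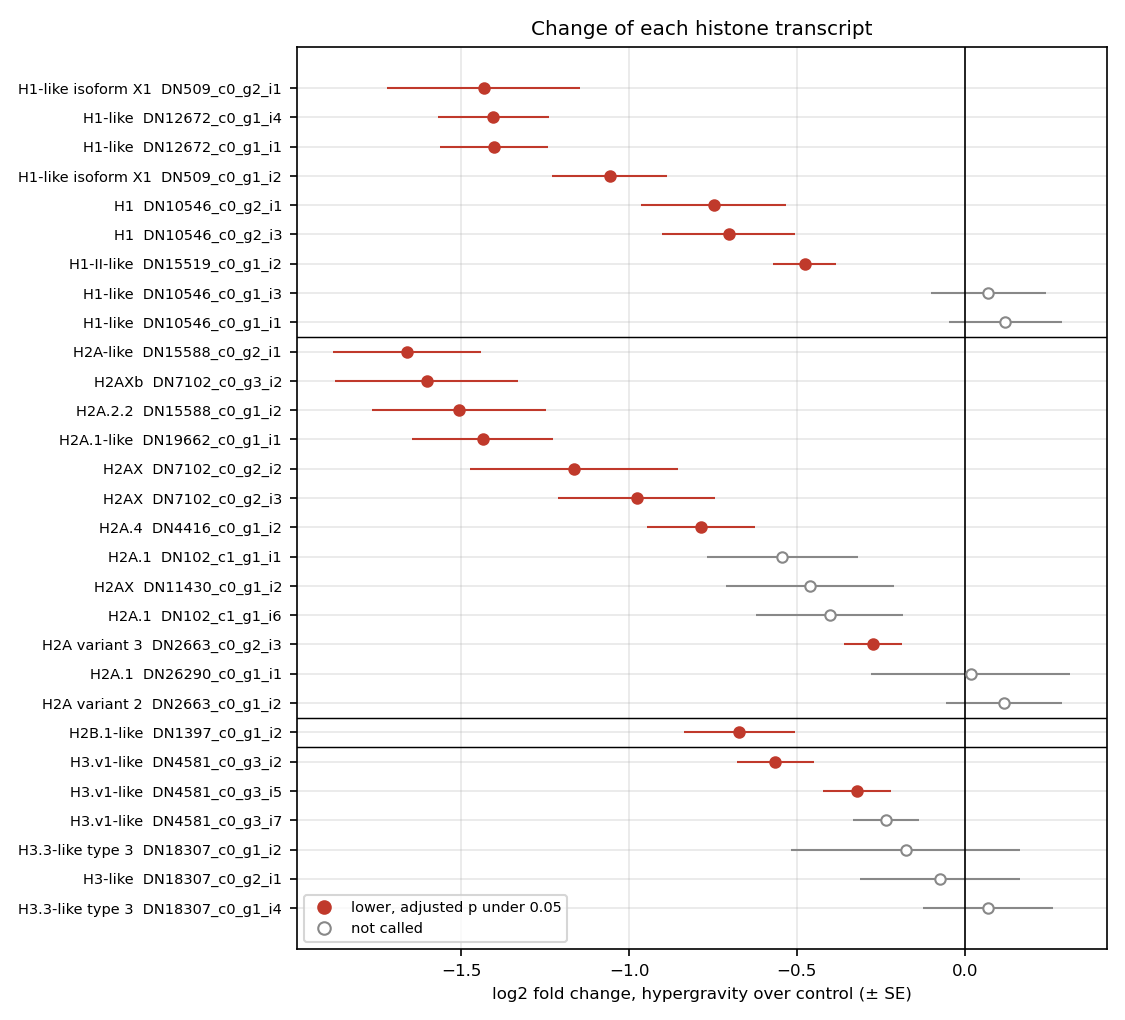
Log2 fold change of hypergravity over control for each histone transcript, with bars of 1 SE from limma, filled red where the transcript was lower at an adjusted p under 0.05 and open grey where it was not called. Changes run from -1.66 for H2A-like to 0.12 for an H1-like isoform, and every filled point lies left of 0.

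Of the 13 H2A transcripts, 8 fell and 5 did not pass the test, with a median of -0.78. Without hypergravity b, 5 of 13 were called lower. They were of 3 kinds by name. Proteins named H2AX carry the tail motif that is phosphorylated beside DNA breaks. Those named H2A variant 2 or 3 bear a name that in rice belongs to proteins of the H2A.Z type, which sits near gene starts. The other 7 carry plain H2A names.

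Among the plain H2A transcripts 4 of 7 fell. H2A-like (TRINITY_DN15588_c0_g2_i1) had 368 and 251 normalized counts in hypergravity, against 764 and 1216 in control. Its change of -1.66 ± 0.22 was the largest of the 29 (adjusted p = 0.000458, limma). H2A.2.2 (TRINITY_DN15588_c0_g1_i2), from the same assembly cluster, had 273 and 151 in hypergravity and 472 and 712 in control. It changed by -1.51 ± 0.26 (adjusted p = 0.0022, limma). The groups did not overlap in either transcript, but libraries of a group also differed. In H2A.2.2 the log2 difference of b against a was -0.85 in hypergravity and 0.59 in control.

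H2A.1-like (TRINITY_DN19662_c0_g1_i1) had 318 and 211 normalized counts in hypergravity and 583 and 847 in control, a change of -1.44 ± 0.21. H2A.4 (TRINITY_DN4416_c0_g1_i2) fell less, with 932 and 707 in hypergravity and 1202 and 1630 in control, a change of -0.78 ± 0.16 (adjusted p = 0.00569, limma, and 0.067 without the mean-variance trend). Within libraries, the ratio of H2A-like to H2A.4 was 0.395 and 0.355 in hypergravity and 0.636 and 0.746 in control. The 3 transcripts named H2A.1, with Brachypodium hits, were scarce and had no Pfam domain. They had 42.2 to 98.8 normalized counts in hypergravity libraries and 47.0 to 123 in control libraries. None passed the test, with changes of -0.54 ± 0.22, -0.40 ± 0.22 and 0.02 ± 0.30.

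Of the 4 H2AX transcripts 3 fell. H2AXb (TRINITY_DN7102_c0_g3_i2) had 152 and 97.8 normalized counts in hypergravity and 279 and 498 in control, a change of -1.60 ± 0.27 (adjusted p = 0.00202, limma). The H2AX isoforms of TRINITY_DN7102_c0_g2 changed by -1.16 ± 0.31 (i2) and -0.98 ± 0.23 (i3). Isoform i2 stood at 125 and 63.8 in hypergravity and at 160 and 255 in control. Isoform i3 stood at 244 and 160 in hypergravity and at 313 and 486 in control. Both isoform calls were lost without hypergravity b, with adjusted p of 0.116 and 0.0787 by limma. The remaining H2AX, TRINITY_DN11430_c0_g1_i2, had 104 and 65.9 in hypergravity and 101 and 131 in control. The groups overlapped, and it changed by -0.46 ± 0.25, with an interval of -1.02 to 0.10. Within libraries, the ratio of H2AXb to isoform i3 was 0.624 and 0.613 in hypergravity and 0.893 and 1.03 in control.

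Of the transcripts with H2A.Z-type names 1 of 2 fell. Variant 3 (TRINITY_DN2663_c0_g2_i3) was the most abundant H2A, with 5937 normalized counts per kilobase in hypergravity and 7180 in control. It had 4823 and 4735 normalized counts in hypergravity and 5648 and 5912 in control. Its change was -0.27 ± 0.09 (adjusted p = 0.0404, limma), and the libraries of a group differed little. The call was lost without hypergravity b (adjusted p = 0.061), control a (0.197) or control b (0.37), and with the trend on transcript length and level removed, where the change was -0.07 (adjusted p = 0.512). Variant 2 (TRINITY_DN2663_c0_g1_i2) had 368 and 254 in hypergravity and 271 and 294 in control and was not called, at 0.12 ± 0.17 with an interval of -0.27 to 0.50. The ratio of variant 3 to variant 2 was 13.1 and 18.6 in hypergravity and 20.8 and 20.1 in control.

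The shares of the 3 kinds were taken among these 13 H2A transcripts alone. Per length, variants 2 and 3 made up 65.0% and 72.1% of their sum in hypergravity and 57.4% and 48.4% in control. The plain H2A transcripts made up 24.6% and 20.4% in hypergravity and 31.4% and 36.9% in control. H2AX made up 10.4% and 7.46% in hypergravity and 11.2% and 14.6% in control. Neither group overlapped the other in any of the 3 shares, and with 2 libraries each no exact permutation p could fall below 0.333. The shares leave out 11 H2A transcripts with hits in other species. The most abundant of these per length, TRINITY_DN7102_c0_g1_i2 with a sorghum hit, had 1154 and 1019 normalized counts in hypergravity and 1698 and 2124 in control.

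**Figure D3:**
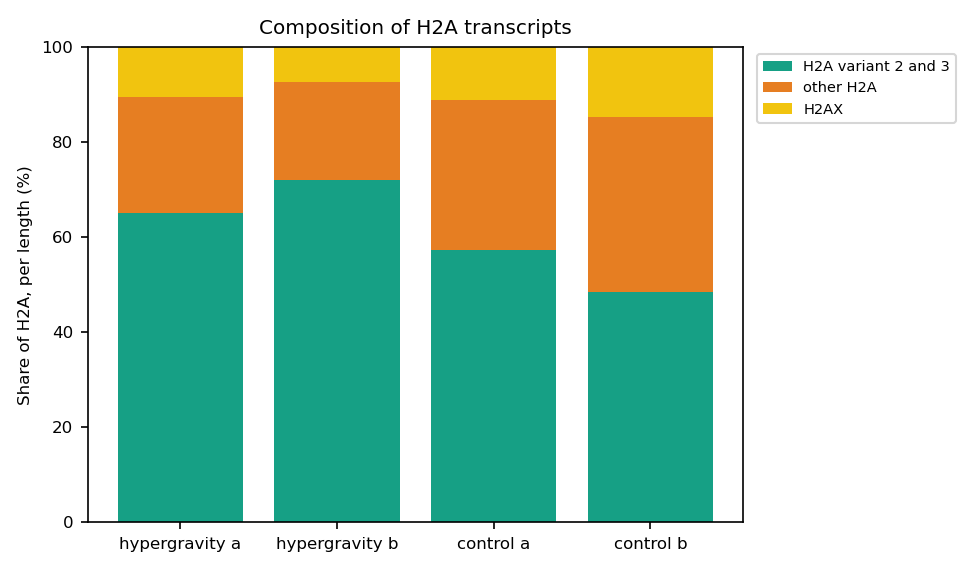
Share of each kind of H2A transcript in the summed level per transcript length of the 13 H2A transcripts, in percent, for the 2 hypergravity and then the 2 control libraries. Variants 2 and 3 take 65.0% and 72.1% in hypergravity and 57.4% and 48.4% in control.

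H2B was represented by 1 transcript, H2B.1-like (TRINITY_DN1397_c0_g1_i2), the most abundant of the 29 per length. It had 4830 and 3354 normalized counts in hypergravity and 5675 and 7248 in control. Its change was -0.67 ± 0.17 (adjusted p = 0.0144, limma), and the call was lost without hypergravity b (adjusted p = 0.057). The assembled gene held 4 isoforms, of which the other three had best hits in Panicum hallii or maize and were also called lower, at -0.69 to -0.73. In each library the 4 isoforms lay within 1.16-fold of each other, so near copies may share the same reads, and sums over isoforms may count a read more than once. That was not tested.

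Of the 6 H3 transcripts 2 fell, both H3.v1-like isoforms of TRINITY_DN4581_c0_g3. Isoform i2 had 1123 and 999 normalized counts in hypergravity and 1422 and 1729 in control, a change of -0.57 ± 0.11 (adjusted p = 0.00542, limma, and 0.0666 without the mean-variance trend). Isoform i5 had 511 and 506 in hypergravity and 628 and 642 in control, a change of -0.32 ± 0.10 (adjusted p = 0.0429, limma). The call of i5 was lost when any library was left out and without the mean-variance trend (adjusted p = 0.131). Isoform i7, at 659 and 630 in hypergravity and 758 and 758 in control, was not called (-0.23 ± 0.10). The groups did not overlap in any of the 3 isoforms.

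The transcripts named as H3 proper were scarce and showed no called change. H3-like (TRINITY_DN18307_c0_g2_i1) had 69.9 and 50.5 normalized counts in hypergravity and 64.1 and 61.1 in control. Its change was -0.07 ± 0.24, with an interval of -0.60 to 0.46. H3.3-like type 3, of the replication-independent kind, had 95.9 and 107 in hypergravity and 88.7 and 105 in control for isoform i4 (0.07 ± 0.19, interval -0.37 to 0.50). Isoform i2 had 20.9 and 13.4 in hypergravity and 14.8 and 24.4 in control (-0.18 ± 0.34). All 3 overlapped between the groups.

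Histone rows that had only a group FPKM, as the authors' values, were lower in hypergravity in 6 of 6 cases, against 46% of the 10101 FPKM rows with hits in the same genera. The ratio between the groups was widest in 2 H2AX rows, with FPKM of 0.14 in hypergravity and 1.56 in control and of 0.13 in hypergravity and 2.13 in control. H1-like isoform X1 (TRINITY_DN509_c0_g2_i2) had 0.49 in hypergravity and 3.29 in control, and H1.01-like had 0.44 in hypergravity and 1.22 in control. A sperm-like H2A had 0.35 in hypergravity and 0.80 in control, and an H2A.1 isoform had 0.13 in hypergravity and 0.26 in control. In all 6 the hypergravity FPKM was at most 0.49, and at such low values a ratio between the groups is uncertain. H1-like isoform X1 and the H2A.1 isoform came from assembled genes that also held members, so they are not separate observations. The 6 rows have no value per library and were not tested.

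Histone transcripts with best hits in other species were called in both directions. Of 56 such transcripts with counts, 17 were called higher (30.4%) and 14 lower (25%), with a median of 0.12. The higher calls lay in 13 and the lower calls in 7 of 43 assembled genes. Over all transcripts 13.5% were called higher and 11.9% lower. Normalized counts of the 56 summed to 32082 and 24788 in hypergravity and to 41858 and 53081 in control. Their summed level was thus lower in hypergravity, although single transcripts were called in both directions. Much of this sum came from near-copy isoforms of the H2B gene TRINITY_DN1397_c0_g1 and the H4 gene TRINITY_DN5495_c0_g1. In control b each of these isoforms had at least 6654 and 4879 normalized counts, respectively. Such isoforms may share reads, so the sum does not show a fall across the 56 transcripts. The 5 with hits in other grasses (Panicum, sorghum, maize or Oryza) lay in 3 assembled genes and included 4 that fell and 0 that rose. The falls included the Panicum and maize isoforms of TRINITY_DN1397_c0_g1, the gene of the member H2B.1-like. The 51 with hits outside the grasses included 10 that fell and 17 that rose. All 12 H4 transcripts had hits outside the grasses, and 3 of them rose and 4 fell. The most abundant H4 gene, TRINITY_DN5495_c0_g1 with a cotton hit, was chosen after its values were seen. Its 4 isoforms were all lower, by -1.28 to -1.33, with 1954 and 1354 normalized counts in hypergravity and 3356 and 4879 in control for isoform i1. The difference between the kinds of best hit was not tested, nor was the species of origin of transcripts with distant hits.

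Transcript length and level moved with these results. The 29 transcripts were mostly short, and 21 were under 1000 bases. Over all transcripts under 600 bases the median change was -0.11, and the libraries of a group also differed, by -0.22 between hypergravity b and a and by 0.09 between control b and a. Among transcripts under 1000 bases with a mean normalized count of at least 500, 31.8% were called lower and the median change was -0.16. Of the 11 histone transcripts in that range 9 were called lower, with a median of -0.75. With the trend of each library on length and level removed, 17 of the 29 were called lower, 0 higher, and the median was -0.53. The median differences of the 29 between libraries of a group then stood at -0.33 for hypergravity b against a and at 0.30 for control b against a. The part of length and level in the histone result was not tested beyond these values.

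**Figure D4:**
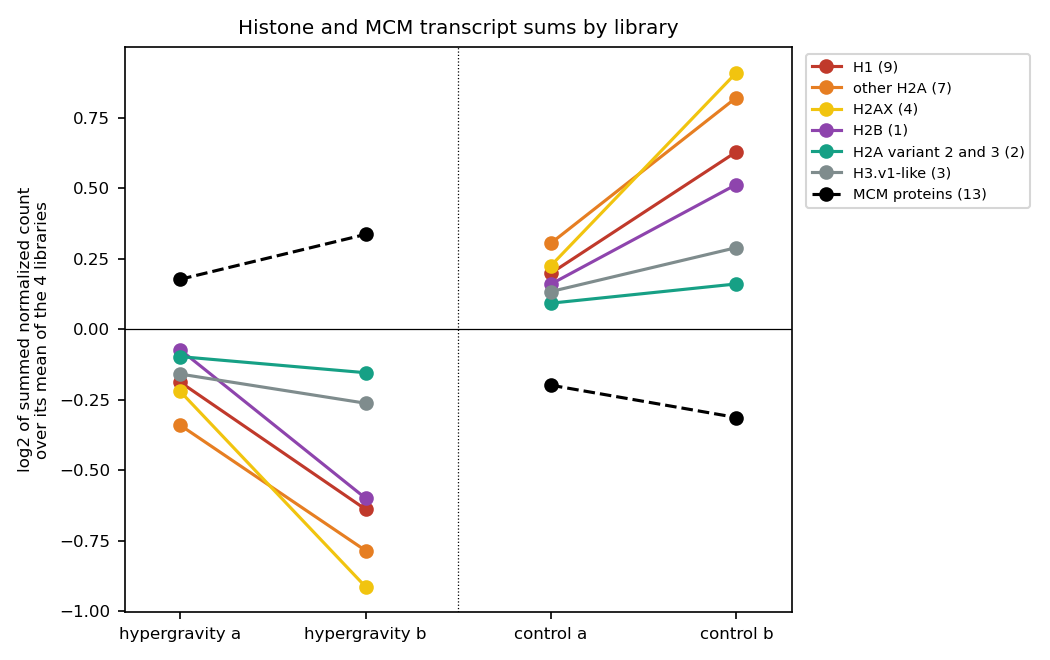
Summed normalized counts of 6 histone kinds (H3-like and H3.3-like are not drawn) and of the 13 MCM transcripts in each library, as log2 of the sum over its geometric mean of the 4 libraries, with lines joining libraries of 1 group only. Histone sums lie below 0 in both hypergravity libraries and above 0 in both control libraries, and the MCM sums lie on the other side in all 4.

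Proteins that handle histones or copy DNA were compared with the same test, by text patterns and with hits in the same 4 genera. Of 33 histone chaperone transcripts 4 fell and 0 rose, with a median of -0.20. The 12.1% that fell is close to the 11.9% of all transcripts called lower. The 4 lay in 2 of 18 assembled genes, and 3 of them were isoforms of TRINITY_DN9469_c0_g1. All 4 were named nucleosome assembly protein 1;1, a chaperone of H2A and H2B. TRINITY_DN9469_c0_g1_i12 had 1082 and 864 normalized counts in hypergravity and 1661 and 2284 in control, a change of -1.01 ± 0.15, and isoform i10 changed by -0.96 ± 0.14. Of the 6 transcripts of FACT, which handles H2A and H2B ahead of polymerases, 0 were called. Their changes ran from -0.47 to 0.14, and 2 were lower and 0 higher at an unadjusted p under 0.05. Of the 5 of chromatin assembly factor 1, which deposits H3 and H4 on new DNA, 0 were called. Here changes ran from -0.38 to 0.31, with 1 lower and 1 higher at an unadjusted p under 0.05. Limma with voom weights called 0 in both, and over all 33 chaperone transcripts it called 4 lower and 0 higher, where 10 were lower and 2 higher at an unadjusted p under 0.05.

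Of 154 DNA replication transcripts 29 rose (18.8%, in 19 assembled genes) and 10 fell (6.49%, in 8), with a median of 0.06. Over all transcripts 13.5% were called higher and 11.9% lower. Without hypergravity b 16 were called higher, and without hypergravity a or control a 6 were called lower. The MCM helicase opens DNA at replication forks. Its subunits held 11 of the rises among 13 transcripts, in 6 of 7 assembled genes, with a median of 0.52. Of 33 DNA polymerase and primase transcripts 27.3% rose, and of 19 ribonucleotide reductase transcripts 26.3%. Of 44 replication protein A transcripts 9.09% rose, and the remaining parts of the list held 0 rises. Summed MCM levels were 18345 and 20484 in hypergravity and 14143 and 13064 in control. Within each group, too, the library with less histone RNA had more MCM RNA. The median log2 difference was 0.21 for hypergravity b against a and -0.15 for control b against a. This order was not particular to MCM. Over all transcripts of at least 3000 bases the same medians were 0.14 and -0.05, and most other replication parts had the same signs. The part of length in the MCM values was not tested beyond the values given here. MCM6 (TRINITY_DN17020_c0_g1_i2), picked after its values were seen, had 4085 and 4340 normalized counts in hypergravity and 3008 and 2869 in control, a change of 0.52 ± 0.09 (adjusted p = 0.00185, limma). No MCM transcript was lower at an unadjusted p under 0.05, and voom weights also gave 11 higher and 0 lower. With the trend on length and level removed 11 of 13 were called higher, with a median of 0.45.

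PCNA, the sliding clamp of the fork, was not called in any of 3 transcripts by limma, with 0 at an unadjusted p under 0.05 and 0 with voom weights, and had sums of 2037 and 1882 in hypergravity and 1930 and 2024 in control. By the size of change, the list was led by replication protein A 32 kDa subunit B (1.40 ± 0.18) and a 70 kDa subunit B-like (1.12 ± 0.27) among those that rose. It was led by 2 isoforms of another 70 kDa subunit B-like (-1.73 ± 0.24 and -1.69 ± 0.23) among those that fell. These bind single-stranded DNA. The grouping of the list into MCM and other parts was made after its values were seen.

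Of 77 mitosis transcripts 9 were called higher and 10 lower, with a median of 0.08. These shares, 11.7% higher and 13% lower, are close to those over all transcripts, 13.5% higher and 11.9% lower. The lower count was 6 without hypergravity a, 3 without hypergravity b and 3 without control b. The 10 lower included 3 calcyclin-binding transcripts that the text pattern took in by their name. Of the 41 transcripts of A- and B-type cyclins, which drive entry into division, 4 rose and 7 fell. The rises lay in 2 and the falls in 3 of 14 assembled genes, and 5 of the falls were isoforms of TRINITY_DN24265_c0_g1. A cyclin-B1-1-like transcript (TRINITY_DN7563_c0_g1_i4) was 4.01-fold higher, with 143 and 159 normalized counts in hypergravity and 33.5 and 40.4 in control (adjusted p = 0.000116, limma). Another (TRINITY_DN24265_c0_g1_i10) changed by -0.67 ± 0.20. Summed levels of these cyclins were 8481 and 8451 in hypergravity and 8958 and 9450 in control. These lists stand in for markers of dividing cells, and their part in the histone result was not tested.

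Enzymes that modify histones were read from 4 lists. Called higher were 23% of demethylases, 8.16% of acetyltransferases, 5.08% of deacetylases and 3.85% of methyltransferases, against 13.5% of all transcripts. Called lower were 0%, 0%, 10.2% and 2.88% in the same order, against 11.9% of all transcripts. Only the demethylase share called higher was thus above that over all transcripts. Of 61 histone demethylase transcripts 14 rose and 0 fell, with a median of 0.12. The 14 lay in 5 of 24 assembled genes, and 8 were isoforms of 1 gene (TRINITY_DN12651_c0_g1), which may share reads. JMJ706-like (TRINITY_DN5828_c0_g2_i2), of a family that removes methyl groups from H3 lysines, had 1619 and 1830 normalized counts in hypergravity and 451 and 429 in control, a change of 1.97 ± 0.10 (adjusted p = 2.28e-06, limma). Of 49 acetyltransferase transcripts 4 rose and 0 fell, led by HAC-like 1 (0.79 ± 0.14), and 2 rose without hypergravity b or control b. Of 59 deacetylase transcripts 3 rose, all isoforms of 1 gene named histone deacetylase 14, and 6 fell, in 4 assembled genes. Of the 6, 3 were isoforms of 1 gene named as the deacetylase complex subunit SAP18. The largest fall was in a histone deacetylase 19 isoform of 756 bases (-0.89 ± 0.22). The isoform of 2194 bases from the same gene changed by -0.07 ± 0.12. No other transcript named histone deacetylase 19 was called, with changes of at most 0.35 in size. Without control b, 0 deacetylases were called higher and 2 lower, and without hypergravity b 1 was called higher. Of 104 histone methyltransferase transcripts 4 rose and 3 fell, and leaving out 1 library gave 1 to 3 higher and 2 to 8 lower. They included SUVH4-like at 0.65 ± 0.10 and at -0.77 ± 0.25 in different assembled genes. At an unadjusted p under 0.05, 2 demethylases and 3 acetyltransferases were lower, and voom weights called 0 lower in either list.

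**Figure D5:**
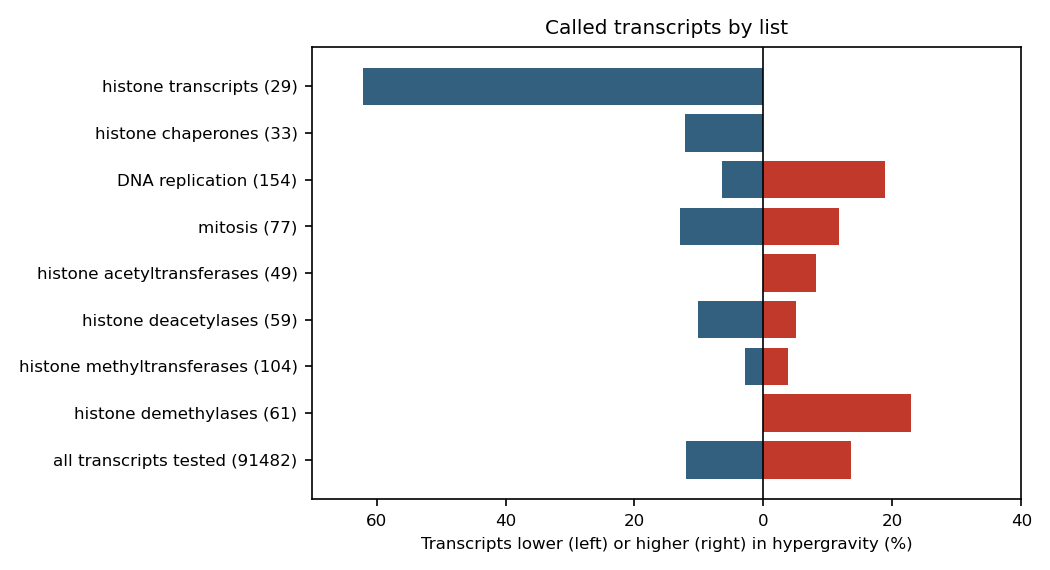
Percent of each list called higher (red, right) or lower (blue, left) in hypergravity at an adjusted p under 0.05 by limma, with the number of transcripts tested in brackets. The histone bar lies on the lower side only, with 18 of 29 transcripts, while 29 of 154 replication and 14 of 61 demethylase transcripts lie on the higher side. The bottom bar gives all transcripts tested, with 13.5% called higher and 11.9% lower.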

How the data were processed

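RSEM is named, without a version, in the submitters' processing notes. Other tools and filters used upstream are not given here. The authors deposited a signal for each group, headed FPKM, for 147297 transcripts of 4 libraries. In 91482 rows both values had over 2 decimals. Each of these deposited signals (100%) was the sum of whole counts over size factors in 2 libraries, with 1 solution within 1e-09. The size factors were 0.959 and 0.971 in hypergravity and 1.01 and 1.06 in control, and equalled median-of-ratios factors recomputed from the counts. The lowest count was 9 in each library. The other 55815 rows hold FPKM as the authors deposited them, and were described but not tested.

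Log2 of the normalized count plus a pseudocount of 1 was fitted with limma 3.58.1 in R 4.3.3, with eBayes and a mean-variance trend (2 residual degrees of freedom, prior 7.91), without a low-value filter. The procedure was tested on simulated data. Lists were text patterns in the hit descriptions, described by counts and medians only. Named histones were, per class, the 3 most abundant per length and the 3 largest called changes each way, 1 per assembled gene, and small variant groups; lists give at most 2 called each way. Other members named were chosen after their values were seen. The members and lists were chosen with earlier results of these data known. Alternatives covered scaling, pseudocount, a mean of at least 50, voom weights, no trend, leaving out libraries, gene sums and other hit species; removing a length and level trend and leaving out H3.v1-like were added after seeing the data.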

Additional observations from a re-analysis of the deposited data

How the results depend on the processing

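Over 11 alternative settings for each transcript, 292 of 318 single changes kept their side of the threshold and 26 called changes missed it. Of changes called in the main fit or in the alternative, 0 reversed direction. Reversals of changes called in neither were not counted. Of the 18 histone calls, 8 held in each of these settings, namely H2A-like, H2A.2.2, H2A.1-like, H2AXb, both TRINITY_DN12672 isoforms and both TRINITY_DN509 transcripts. The count of histone transcripts called higher was 0 in every setting except hits of any species, where 17 were higher and 32 lower. The median histone change ran from -0.79 without hypergravity a to -0.42 without control b. Without the mean-variance trend, 8 histone transcripts were lower (H1 4, H2A 4, H2B 0, H3 0), and 6622 of all transcripts were. The cause was not tested. In the same setting replication had 19 higher, mitosis 1 lower, acetyltransferases 2 higher, deacetylases 0 higher and 0 lower, and methyltransferases 1 higher and 0 lower. H3 had 1 lower with scaling to total counts. Chaperones had 7 lower with quantile normalization, where methyltransferases had 1 higher, and a mean of at least 50 gave 7 methyltransferases higher. With the length and level trend removed, chaperones had 7 lower, replication 17, acetyltransferases 1, deacetylases 11, methyltransferases 6 and demethylases 2.

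Leaving out 1 library at a time, the lone library being taken to vary like the other group, gave 11 to 17 histone transcripts lower, with 11 without hypergravity b. The ranges were 5 to 8 for H2A, 0 to 1 for H2B, 1 for H3, and 6983 to 10804 over all transcripts. For lists they were 0 to 1 chaperones higher, 16 to 30 replication higher and 6 to 11 lower, 3 to 9 mitosis lower, 2 to 4 acetyltransferases higher and 0 to 1 lower, 0 to 3 deacetylases higher and 2 to 9 lower, 1 to 3 methyltransferases higher and 2 to 8 lower, and 0 to 2 demethylases lower. No paired analysis was possible because the recovered libraries carry no replicate number. With 2 libraries a group, precision is limited, and scarce transcripts such as H3.3-like have wide intervals.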
